A study of Mus musculus with 4 samples.

Results

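The respiratory chain and ATP synthase genes of mouse glioma macrophages were followed across 4 RNA sequencing libraries, 2 from controls and 2 from treatment with MK-8931. Members were the protein-coding genes whose names begin with the subunit stems of complexes I to V (Nduf with subunit letters, Sdh, Uqcr, Cyc1, Cycs, Cox4 to Cox8 and Atp5) or with the mitochondrial prefix mt- followed by Nd, Co, Cytb or Atp. The rule used names only and found 100 members among 54532 genes in the deposited table, of which 22046 were protein-coding. Of these members, 87 were encoded in the nucleus and 13 on the mitochondrial genome. The nuclear members comprised 35 genes of complex I, 4 of complex II, 9 of complex III, cytochrome c itself (Cycs), 20 of complex IV and 18 of complex V. The mitochondrial members comprised 7 genes of complex I, 1 of complex III, 3 of complex IV and 2 of complex V. Ndufa4 and Ndufa4l2, which carry a complex I name, were counted with complex IV, where the Ndufa4 protein is now placed. Atp5o was listed under 2 gene identifiers, of which one had no count in any library. A further 12 entries matched the names but were 11 processed pseudogenes and 1 non-coding RNA, and were left out.

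The cells were tumour-associated macrophages of mice bearing glioblastoma xenografts, sorted as CD45+, Gr1-, CD11b+ and DAPI-. Control is the group labelled CTL and the other is labelled MK. MK-8931 (verubecestat) is an inhibitor of the protease BACE1. The labels give no strain beyond "GBM mice", no age and no route, and do not tie libraries to separate animals, so the p-values reflect the scatter of these 4 samples alone, and that scatter may be technical. The treatment protocol names 3 days with TAM_MK-8931 or vehicle, but it speaks of glioma stem cells (GSCs), as does the RNA extraction, so how the agent reached the sorted cells is not settled by the labels.

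Respiratory complexes I to IV pass electrons from NADH and succinate to oxygen and, apart from complex II, pump protons across the inner mitochondrial membrane. Complex V uses that gradient to make ATP. Complex II is wholly nuclear-encoded, whereas complexes I, III, IV and V combine nuclear subunits with a core translated inside the mitochondrion. The mitochondrial genome is transcribed as long precursors that are cut into single messenger RNAs, and mt-Nd6 is its only protein-coding gene on the light strand. In macrophages, inflammatory activation is known to lower oxidative phosphorylation, and alternatively activated cells are known to rely on it.

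Library totals lay between 18257930 and 20179875 counts, and 18258 to 20075 genes were detected per library. The labelled cell type was checked on 12 macrophage markers, all of which were above 0 in every library, and which summed to 11923 and 15055 CPM in the controls, against 10953 and 11162 CPM with MK-8931 (CPM is the count relative to the scaled library size). Of the 12, Itgam was called higher (log2 difference 0.75, edgeR adjusted p = 0.0485) and none lower, and 6 had an unadjusted p under 0.05, with values from -0.60 (C1qa) to 0.75. Over all 13932 genes tested, edgeR called 0.861% higher and 0.136% lower (adjusted p under 0.05), and 10.8% had an unadjusted p under 0.05. Markers of other cells differed between the groups. The summed level of 21 neutrophil markers was 473 to 514 CPM in the controls and 1436 to 2184 CPM with MK-8931, and 14 of the 16 tested were called higher. Of that list, Elane had no count in any library, Ly6g had counts in MK-8931 2 only, and Camp, Ngp, G0s2 and Wfdc21 were at 0 in at least 1 library. A list of 12 homeostatic microglia markers summed to 3041 and 3620 CPM in the controls, against 2484 and 2734 CPM with MK-8931, with none called and Sall1 at 0 in 3 libraries. Of 12 monocyte markers, 6 were called higher and none lower (median log2 difference 1.51), and no gene was at 0. Their summed levels were 6125 and 5643 CPM in the controls, against 6330 and 5829 CPM with MK-8931. Fn1 made up most of each sum, at 5690 and 5369 CPM in the controls, against 5532 and 5022 CPM with MK-8931 (log2 difference -0.07). The sum therefore follows Fn1 and not the 6 called markers. Of 4 tested red cell and platelet markers, Pf4 and Ppbp were called higher. The 11 genes of that list summed to 165 and 170 CPM in the controls, against 334 and 429 CPM with MK-8931, with Hbb-bt and Hba-a2 among those at 0 throughout and Gp9, Alas2, Hba-a1 and Hbb-bs at 0 in at least 1 library. None was called among the tested dendritic cell (11), endothelial and mural (12), lymphocyte (1) and neural and glial (1) markers. The part of these markers in the values below was not tested. In bulk samples, fewer cells of a type and less RNA per cell cannot be told apart.

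Several mitochondrial members have near-identical copies in the nuclear genome, and the sequences show why their values need care. In GRCm38 a block on chr1:24611535-24616197, minus strand, holds 7 annotated pseudogenes that match a continuous stretch of the mitochondrial genome. The first 61 bases of mt-Co3 (mitochondrial genome, 8607 to 9390), a core subunit of complex IV, are identical to those of the copy Gm28437 (chr1:24613189-24613971). They are shown because no read lying within them could be assigned by sequence.
mt-Co3: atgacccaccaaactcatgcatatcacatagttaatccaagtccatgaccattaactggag
Gm28437: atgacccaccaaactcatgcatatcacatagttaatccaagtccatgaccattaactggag
Over the 783 bases compared, mt-Co3 and Gm28437 had 0 differences. For mt-Nd3 (mitochondrial genome, 9459 to 9806), a complex I core subunit, the 345 bases compared with Gm28438 (chr1:24612775-24613119) held a single difference, T3C, counted from 1 at the gene's 5′ end and shown in capitals.
mt-Nd3: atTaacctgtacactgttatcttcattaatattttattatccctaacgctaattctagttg
Gm28438: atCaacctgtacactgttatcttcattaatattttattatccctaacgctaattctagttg
The match of mt-Co1 (mitochondrial genome, 5328 to 6872), the catalytic subunit of complex IV, to the chromosome 1 block covers its last 492 bases. Bases 1054 to 1114 span the edge of that match, with 6 differences from Gm29216 (chr1:24615706-24616197) in capitals.
mt-Co1: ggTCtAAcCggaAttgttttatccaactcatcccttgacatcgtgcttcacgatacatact
Gm29216: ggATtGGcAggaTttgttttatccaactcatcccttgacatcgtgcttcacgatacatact
Sequences are those of the GENCODE M21 transcripts of GRCm38.

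Every 50-base window of each member's transcripts was looked up in the other annotated transcripts, on both strands. Transcripts of genes whose positions overlap the member were left out, so windows shared with them are not counted. The share of windows found elsewhere was 100% for mt-Co2, 99.9% for mt-Co3, 99.5% for mt-Atp6, 98.8% for mt-Nd4l and 98.0% for mt-Nd3. It was 62.2% for mt-Nd4, 51.1% for mt-Co1, 8.19% for mt-Nd2 and 7.61% for mt-Nd5. Gm29216 accounted for 430 of the 1496 windows of mt-Co1 (28.7%), and its other shared windows were found in other annotated transcripts. No window of mt-Nd1, mt-Nd6, mt-Cytb or mt-Atp8 was found elsewhere. The same 5 genes lay over 90% with windows of 75 and 100 bases. Those 5 were all low, with 2 to 224 counts per library, although mt-Co2, mt-Co3 and mt-Atp6 encode core subunits. The copies carried counts of their own. Gm28438, the copy of mt-Nd3, had far more than the gene, at 63 and 84 counts in the controls, where mt-Nd3 had 2 and 6, and 68 and 60 counts with MK-8931, where mt-Nd3 had 2 and 4. Gm28661, the copy of mt-Co2, was nearer to its gene, with 127 and 234 counts in the controls, where mt-Co2 had 108 and 224, and 114 and 126 counts with MK-8931, where mt-Co2 had 104 and 119. How long the reads were, and how reads with several matches were counted, was not given in the sources used here, and the part of the copies in these low values was not tested.

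mt-Atp8, a small membrane subunit of complex V, was as low, at 2 and 6 counts in the controls, against 4 in each MK-8931 library, without an annotated copy. It overlaps mt-Atp6 by 43 bases, and the rest of it lies in the interval of 230 bases that separates mt-Co2 from mt-Atp6. On chromosome 1 the matching interval between Gm28661 and Gm10925 has 233 bases and holds no annotated gene, so a look-up in transcripts could not find a match there. Its first 61 bases are shown because they lie in the interval between the neighbouring genes.
mt-Atp8: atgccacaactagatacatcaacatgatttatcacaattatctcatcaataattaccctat

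Among nuclear members, 42 of 87 shared at least 1 such window and 13 shared over 10%, with the highest share, 36.7%, in Atp5g2, a c-ring subunit of complex V. In 1 of them the copy had more counts than the gene. Ndufs5 (chr4:123712710-123718202, minus strand), an accessory subunit of complex I, had 21 and 43 counts in the controls, against 19 and 30 with MK-8931. Its processed pseudogene BC002163 (chr16:42955631-42955949) had 418 and 687, and 464 and 420. Their 319 matched bases differ by T328C and A352G, counted from the 5′ end of the Ndufs5 transcript, and bases 298 to 358 are shown with these differences in capitals.
Ndufs5: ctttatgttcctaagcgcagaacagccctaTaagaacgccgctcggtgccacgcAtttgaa
BC002163: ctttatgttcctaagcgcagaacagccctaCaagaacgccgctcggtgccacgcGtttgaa
The level of Ndufs5 is therefore uncertain, as are those of Cox7a2l, whose copy Gm6969 had 688 to 1091 counts against 1094 to 1556 for the gene, and Ndufa12, whose copy Gm15920 had 179 to 221 counts.

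Levels were compared between genes as the authors' FPKM, which are scaled to gene length. mt-Co1 was the highest member at a mean of 3628 FPKM. It was followed by mt-Nd1 (a proton-pumping core subunit of complex I) at 1526 and mt-Cytb (the haem-bearing core of complex III) at 892 FPKM. mt-Nd2 stood at 545, mt-Nd5 at 440, mt-Nd4 at 382 and mt-Nd6 at 325 FPKM, all complex I core subunits. The other 6 mitochondrial members lay between 0.526 FPKM (mt-Nd3) and 10.6 FPKM (mt-Co2). The 7 abundant members thus formed a group far above the other 6, and neighbours within it overlapped over the libraries, as for mt-Nd4 (351 to 404 FPKM) and mt-Nd6 (274 to 446 FPKM). The order within the group is uncertain, because mt-Nd4 and mt-Co1 shared 62.2% and 51.1% of their windows with other transcripts. Mean counts per 50-base window not found elsewhere were 147 for mt-Co1, 30.8 for mt-Nd1, 20.1 for mt-Nd4 and 17.8 for mt-Cytb. By that measure mt-Nd4 stood above mt-Cytb, the reverse of their FPKM.

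**Figure D1:**
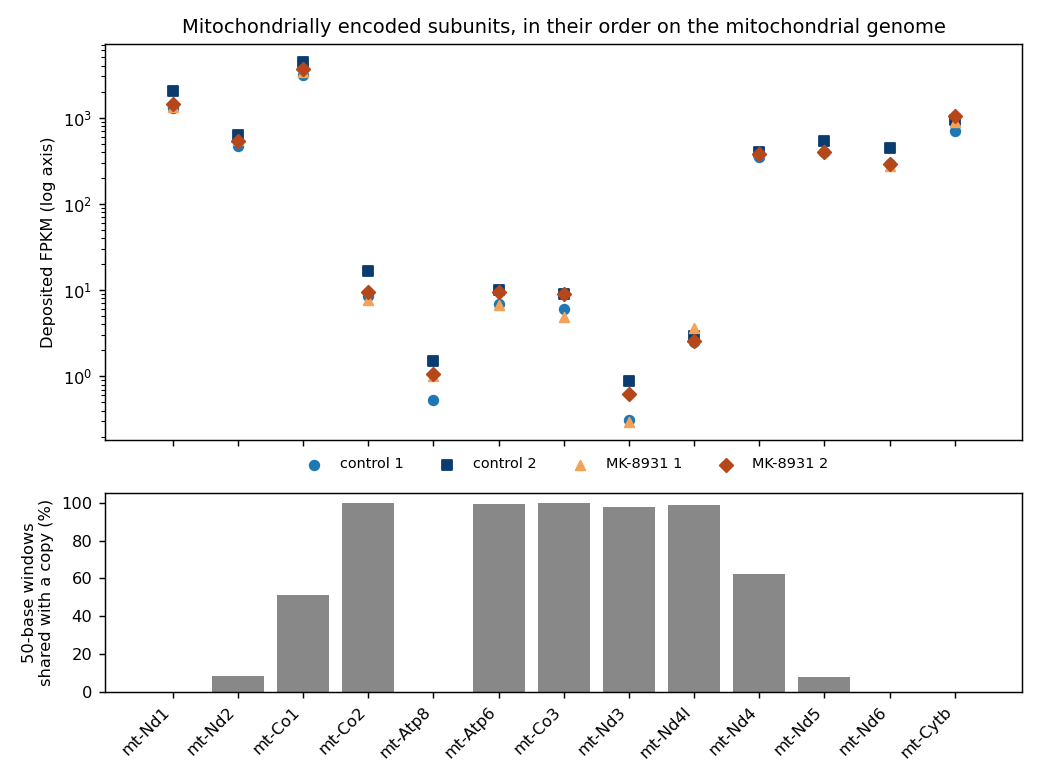
FPKM of the 13 mitochondrial members on a log axis in each of the 4 libraries (points, top), in genome order. Bars (bottom) give the share of their 50-base windows found in another annotated transcript, leaving out genes that overlap the member. The 5 genes with shares from 98.0% to 100% all lie at or below 16.8 FPKM, as does mt-Atp8, whose share is 0.

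The 83 nuclear members that passed the filter on low counts had a median of 35.5 FPKM, against 4.67 FPKM for the 13932 genes tested, and ranged from 0.431 (Ndufb2) to 264 FPKM (Cox8a). By complex the medians were 23.3 FPKM for complex I, 47.1 for complex II, 46.7 for complex III, 18.7 for Cycs, 45.2 for complex IV and 44.3 for complex V. Complex I was therefore the lowest of the multi-subunit complexes, and this order held in each library, with complex I between 19.98 and 27.6 FPKM and the other complexes between 31.2 and 57.4 FPKM. Cox8a and Cox6a1 (238 FPKM), small subunits of complex IV, and Atp5a1 (225 FPKM) and Atp5b (190 FPKM), the alpha and catalytic beta subunits of complex V, were the highest. Within complex I, Ndufa2 (70.2 FPKM) and Ndufa1 (60.2 FPKM), both accessory subunits, were highest. In complex II, Sdhd, a membrane anchor, stood at 70.2 FPKM and the flavoprotein Sdha at 50.1 FPKM. In complex III, Uqcr10 (67.0 FPKM) and Uqcrb (62.6 FPKM), small subunits, led.

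**Figure D2:**
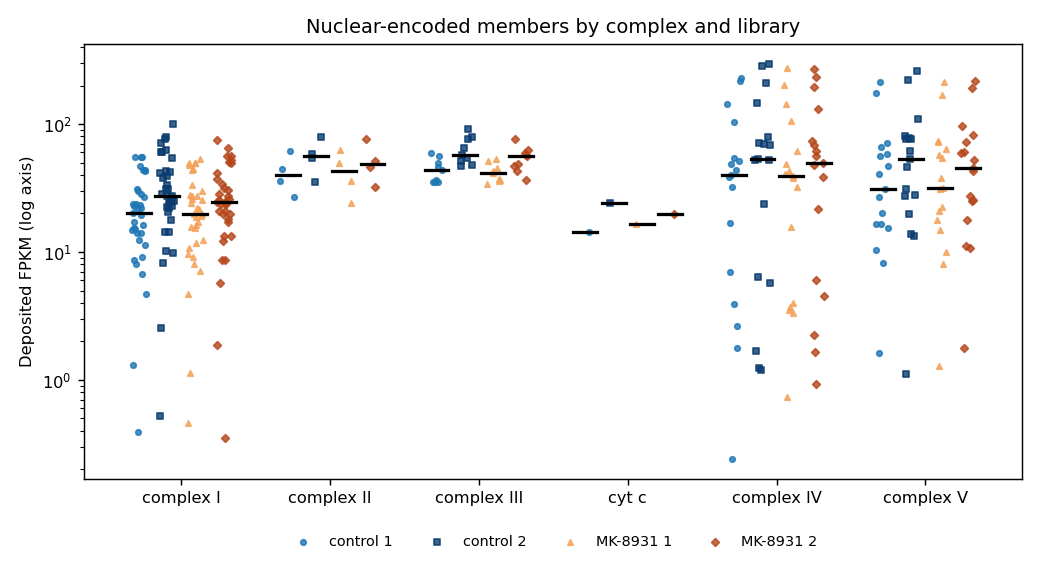
FPKM of the 83 tested nuclear members by complex on a log axis, with 1 point per gene and library and a bar at each median. The complex I median is below those of complexes II to V in all 4 libraries, and within each complex the median is higher in replicate 2 than in replicate 1 of both groups.

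Several complex IV subunits exist as paired isoforms, and the common isoform dominated in each library. Cox4i1, the general isoform of a regulatory subunit, exceeded the hypoxia-linked Cox4i2 by 80.7 and 170 times in the controls, against 40.8 and 118 times with MK-8931, in FPKM. Cox6a1 exceeded the heart and muscle isoform Cox6a2 by 31.5 to 51.6 times. Cox6b1 exceeded the testis isoform Cox6b2 by 122 to 433 times, and Cox7a2 exceeded the muscle isoform Cox7a1 by 8.14 to 10.5 times. Ndufa4 exceeded Ndufa4l2, its hypoxia-induced relative, by 9.64 to 31.6 times. These ranges overlapped between control and MK-8931, except that the Cox6a ratio was 31.5 and 46.8 in the controls, against 51.0 and 51.6 with MK-8931. Cox7b2 and Cox8c, isoforms of restricted tissues, had no count in any library, and Cox8b had 1 count, in MK-8931 1. A count of 0 allows a level of up to 0.149 to 0.164 CPM (3 counts, for counting error only).

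In the comparison of MK-8931 with control, which asks how expression in these macrophages differed with the inhibitor, 0 of 94 tested members were called, in either direction. A call is an adjusted p under 0.05 in edgeR's quasi-likelihood test, with Benjamini-Hochberg adjustment over all 13932 genes, of which 139 (0.998%) were called, 120 higher (0.861%) and 19 lower (0.136%). No member had an unadjusted p under 0.05 either, against 1502 of all genes (10.8%). Members called were also 0 with DESeq2 (2.56% of genes called), limma-voom (1.08%), RLE size factors (0.998%), library size alone (0.926%), scaling without mitochondrial genes (0.998%), no filter on low counts (2.29%) and a replicate block (5.33%). The fitted log2 differences of the members ran from -0.63 (Cox6a2) to 0.78 (Cox4i2), with a median of -0.11 in the nuclear group, -0.11 in the mitochondrial group and -0.00 over all genes. Values were below 0 for 60 of 83 nuclear and 7 of 11 mitochondrial members, against 50.4% of all genes. Both MK-8931 libraries lay above both controls for 0 members (21.2% of all genes) and below both for 2 (20.0% of all genes).

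The count of 0 depended on control 1. Leaving it out gave 9 called members, all lower, where 763 of 14861 genes (5.13%) were called, 1.64% lower and 3.5% higher. Members called remained 0 in number without control 2 (1.47% of genes called), MK-8931 1 (1.03%) or MK-8931 2 (0.635%). They were Ndufb4, Ndufb6, Ndufs6, Ndufb8, Ndufa2, Ndufa8 and Ndufa4 among nuclear members and mt-Nd6 and mt-Nd1 among mitochondrial ones, from -0.95 (Ndufb4) to -0.53 (mt-Nd1), with edgeR adjusted p from 0.0044 to 0.0449. The median of the nuclear members was -0.34 without control 1 but 0.18 without control 2, so its direction depended on which control was kept.

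The mitochondrial members had differences of both signs. mt-Co1 measured 4872 and 6785 CPM in the controls, against 5192 and 5642 CPM with MK-8931 (log2 difference -0.11 ± 0.17 SE, edgeR adjusted p = 0.90). Both MK-8931 values lay between the control values. mt-Nd1 measured 1256 and 1923 against 1281 and 1397 CPM (-0.25 ± 0.19 SE, edgeR adjusted p = 0.741), again within the span of the controls. mt-Nd6 measured 150.3 and 231 against 143 and 153 CPM (-0.36 ± 0.19 SE, edgeR adjusted p = 0.574), the smallest p of any member. Its higher control, control 2, stood apart from the other 3 libraries. Whether the counting used strand is not given, and mt-Nd6 lies opposite to its neighbours. mt-Cytb had the highest positive difference among the mitochondrial members, at 803 and 1057 against 1036 and 1200 CPM (0.27 ± 0.16 SE, edgeR adjusted p = 0.64), with MK-8931 1 below control 2. mt-Nd5 was 723 and 985 against 769 and 741 CPM, mt-Nd2 was 485 and 641 against 580.1 and 565 CPM, and mt-Nd4 was 485 and 554 against 547 and 529 CPM. In these 3 genes too the groups overlapped, with fitted differences from -0.18 to 0.05. Of the members almost wholly shared with copies, mt-Co2 had the lowest difference, at 5.81 and 11.4 against 5.33 and 6.46 CPM (-0.55 ± 0.35 SE). mt-Co3, mt-Atp6 and mt-Nd4l had differences of -0.12, -0.05 and 0.18.

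Among complex I subunits encoded in the nucleus the median difference was -0.12. Ndufb6, an accessory subunit of the membrane arm, had the smallest p, at 20.7 and 35.8 CPM in the controls, against 18.6 and 22.4 CPM with MK-8931 (-0.47 ± 0.26 SE, edgeR adjusted p = 0.601). MK-8931 2 lay above control 1, so the groups overlapped. Ndufs7, which carries an iron-sulphur cluster, had the smallest p among positive differences, at 29.5 and 39.4 against 34.0 and 42.9 CPM (0.16 ± 0.20 SE, edgeR adjusted p = 0.858). Ndufa1 was 23.4 and 33.0 against 20.9 and 23.9 CPM, and Ndufa2 was 31.7 and 57.5 against 28.6 and 43.2 CPM. In both, control 2 was highest and MK-8931 1 lowest. Ndufb11, another membrane-arm subunit, was the only complex I member with both MK-8931 libraries below both controls, at 50.4 and 63.8 against 48.3 and 47.7 CPM (-0.25 ± 0.16 SE, edgeR adjusted p = 0.67), and it is named after its values were seen. Its lower control stood close above the higher MK-8931 library.

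Complex II and complex III differed as little. Sdha was 186 and 222 against 207 and 215 CPM (0.05 ± 0.13 SE), and Sdhb, the iron-sulphur subunit, was 80.4 and 129 against 81.4 and 104 CPM (-0.18 ± 0.22 SE). Sdhd was 76.8 and 97.9 against 77.2 and 94.7 CPM. In these 3 subunits of complex II the replicates of one group were further apart than the group means. Uqcrfs1, the Rieske iron-sulphur protein of complex III, was 81.4 and 88.7 against 61.6 and 82.3 CPM (-0.24 ± 0.17 SE, edgeR adjusted p = 0.703). Uqcrh, the hinge protein, was 43.8 and 70.7 against 46.4 and 70.8 CPM, nearly the same pair in both groups. Uqcrb was 49.2 and 69.4 against 46.6 and 54.9 CPM. Cycs, the mobile electron carrier, was 49.3 and 81.8 against 56.3 and 67.7 CPM (-0.08 ± 0.23 SE), with both MK-8931 values inside the control pair. The medians were -0.08 for complex II and -0.14 for complex III.

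In complex IV the median difference was -0.06, and the 2 extremes were low isoforms. Cox6a2 was 4.73 and 4.29 CPM in the controls, against 2.72 and 3.10 CPM with MK-8931 (-0.63 ± 0.35 SE, edgeR adjusted p = 0.591). Its groups did not overlap, at 84 and 88 counts against 53 and 57. Cox4i2 was 1.40 and 0.970 against 2.77 and 1.30 CPM (0.78 ± 0.61 SE, edgeR adjusted p = 0.744), where MK-8931 1 alone was high, at 54 counts. The abundant Cox4i1 was 222 and 324 against 222 and 303 CPM, Cox6a1 was 154.1 and 207 against 143 and 165 CPM, and Cox8a was 126 and 153 against 149.9 and 148.8 CPM. Their differences were -0.06, -0.23 and 0.09, all with overlap. Ndufa4 was 45.0 and 73.2 against 44.8 and 53.5 CPM.

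In complex V the median was -0.12. Atp5b was 746 and 938 against 722 and 818 CPM (-0.13 ± 0.15 SE), and Atp5a1 was 672 and 806 against 667 and 689 CPM (-0.12 ± 0.13 SE). Atp5g3, a c-ring subunit, had the smallest p of the complex, at 128 and 167 against 126 and 133 CPM (-0.19 ± 0.15 SE, edgeR adjusted p = 0.754). Atp5d, the central-stalk delta subunit, was 128 and 148 against 141 and 159 CPM (0.12 ± 0.14 SE). In each of these the groups overlapped. Over all 94 members the standard error had a median of 0.21 and ran from 0.13 to 0.88. On simulated counts of these libraries the test recovered 11 of 69 genes changed 1.5-fold and 41 of 65 changed 2-fold. Those genes were drawn from all genes tested and not from the members, and changes under 1.5-fold were not simulated. A member without a call may therefore still have changed.

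**Figure D3:**
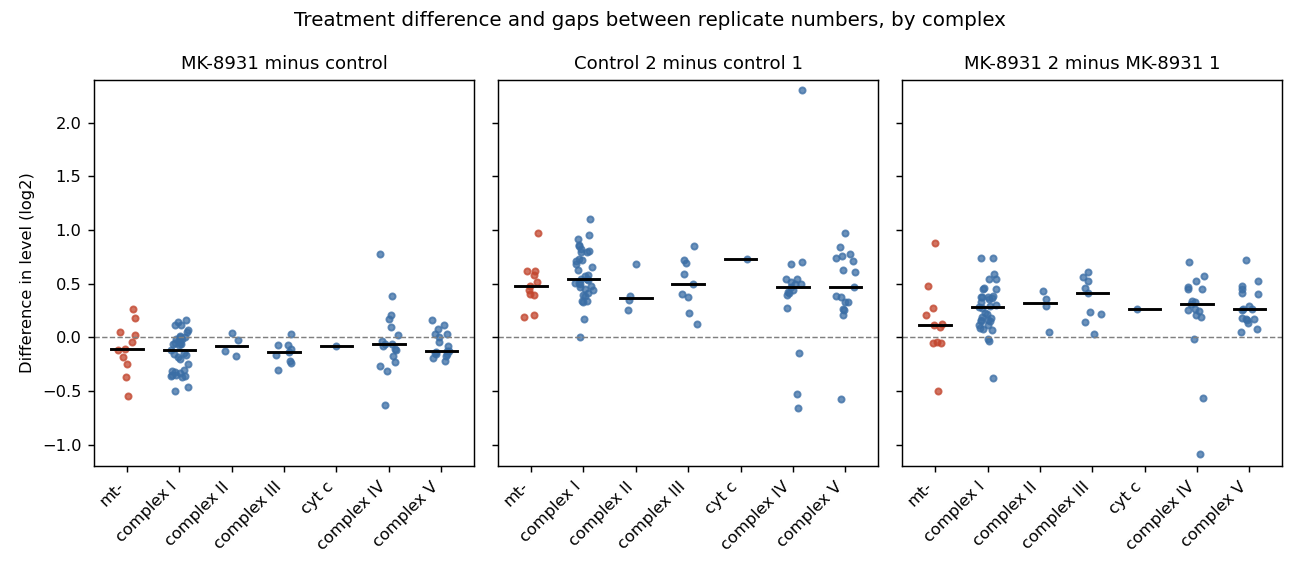
Log2 difference of each tested member, by complex, for MK-8931 minus control (left, fitted), control 2 minus control 1 (middle) and MK-8931 2 minus MK-8931 1 (right), with a bar at each median and mitochondrial members first. The treatment medians lie from -0.14 to -0.06, whereas the medians between the controls lie from 0.37 to 0.73. The former are fitted from 2 libraries per group and the latter are between single libraries.

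By replicate number the members differed more than by treatment. The former is a difference between single libraries and the latter is fitted from 2 libraries per group, so their sizes are not like for like. Control 2 was above control 1 for 79 of 83 nuclear members, with a median log2 difference of 0.51, and for 11 of 11 mitochondrial members, with a median of 0.48. Over all genes tested, 48.7% were higher in control 2 and the median was -0.01. MK-8931 2 was above MK-8931 1 for 77 of 83 nuclear members (median 0.28) and 7 of 11 mitochondrial members (median 0.12), against 50.9% of all genes (median 0.01). Replicate 2 was the higher in both groups for 82 of 94 members, against 30.9% of all genes. Markers of other cells also differed between the controls. Endothelial and mural markers (14 genes) summed to 712 CPM in control 1 and 339 CPM in control 2, and to 706 and 1075 CPM in MK-8931 1 and 2, with Cldn5 and Tek at 0 in all libraries but control 2. Collagen genes (Col1a1, Col3a1 and Col1a2) made up most of each sum, which therefore follows them. Col1a1 alone fell from 245 CPM in control 1 to 89.4 CPM in control 2, and rose from 244 CPM in MK-8931 1 to 370 CPM in MK-8931 2. The other genes of that list went both ways from control 1 to control 2, as for Pecam1 (10.8 to 4.64 CPM) and Kdr (16.4 to 18.8 CPM). From MK-8931 1 to MK-8931 2, Pecam1 went from 24.0 to 20.5 CPM and Kdr from 18.8 to 17.4 CPM. Monocyte markers had a median of -0.62 for control 2 minus control 1 and 0.19 for MK-8931 2 minus MK-8931 1, and macrophage markers 0.21 and 0.01. Their part in the difference by replicate number was not tested. The differences between libraries are descriptions without a test, because each is a difference between single libraries, and the replicate numbers are not stated to mark a shared day or animal.

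The distance between the controls was larger than the treatment difference for 90 of 94 members, 79 of 83 nuclear and 11 of 11 mitochondrial, and for 8029 of 13932 genes. Relative to control 1, the nuclear members had a median of 0.51 in control 2, 0.02 in MK-8931 1 and 0.32 in MK-8931 2. Control 2 was the highest library for 70 of 83 and the lowest was control 1 for 45 and MK-8931 1 for 33. The mitochondrial members stood at 0.48, 0.09 and 0.15 on the same scale, so MK-8931 2 lay closer to control 1 in them. The complexes differed in the same direction between the controls, with medians of 0.55 for complex I, 0.37 for complex II, 0.50 for complex III, 0.73 for Cycs, 0.47 for complex IV and 0.47 for complex V. Between the MK-8931 libraries the medians were 0.28, 0.33, 0.42, 0.27, 0.32 and 0.26 in the same order.

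The 4 nuclear members that were lower in control 2 than in control 1 were Cox6a2, Cox4i2, Ndufa4l2 and Atp5s, and they are named after their values were seen. The first 3 are the minor isoforms of complex IV described above, and Atp5s (coupling factor B) is needed for ATP synthase function without being a core subunit. Atp5s was 3.33 and 2.25 CPM in the controls, against 2.61 and 3.64 CPM with MK-8931, and Ndufa4l2 was 2.90 and 1.84 against 3.69 and 2.50 CPM. All 4 were low, at under 5 CPM in each library.

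Gene length in the table went with the same difference between libraries. Among other protein-coding genes, the median of control 2 minus control 1 was 0.40 for the 269 genes of at most 1000 bases, 0.26 for 1297 genes up to 2000 bases, 0.16 for 1869 genes up to 3000, 0.03 for 3489 genes up to 5000 and -0.13 for 5203 longer genes. The nuclear members in those classes had medians of 0.51, 0.61, 0.41, 0.39 and 0.40, from 21, 31, 13, 15 and 3 genes. The members therefore lay above other genes of like length in every class, and the shortest members did not lead. Between the MK-8931 libraries, other genes went from 0.30 in the shortest class to -0.08 in the longest, and members had 0.27, 0.36, 0.24, 0.26 and 0.11, below the other genes only in the shortest class. The part of gene length in the difference between libraries was not tested. For MK-8931 against control, other genes had medians from -0.04 to 0.01 across the classes and members from -0.22 to -0.06.

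**Figure D4:**
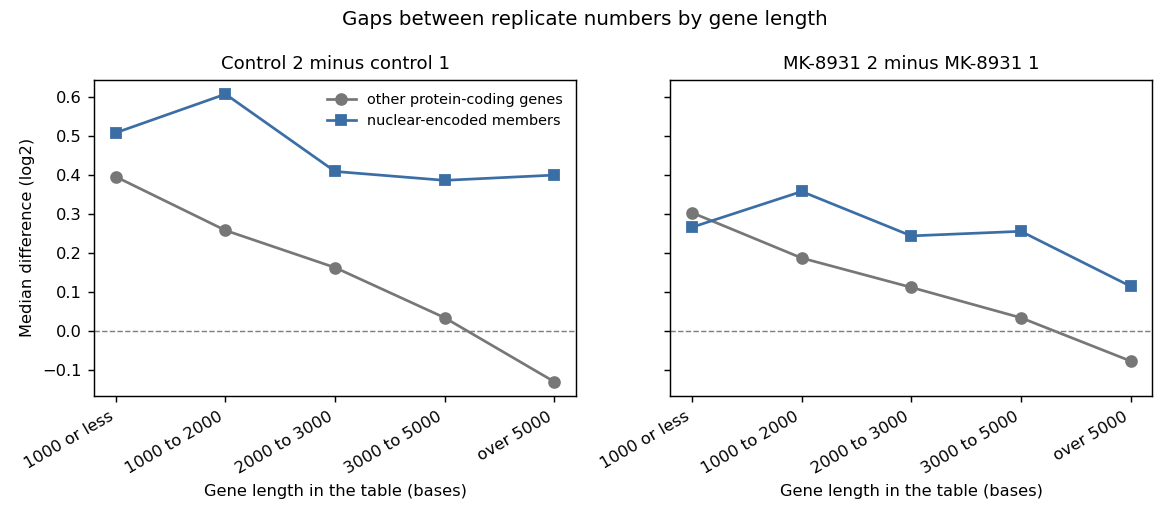
Median log2 difference between replicate 2 and replicate 1 by gene length class for other protein-coding genes (circles) and nuclear members (squares), in controls (left) and MK-8931 libraries (right). Other genes fall from 0.40 to -0.13 in the controls as length grows, and members stay from 0.39 to 0.61. The longest class holds 3 members.

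As a share of all counts, the 13 mitochondrial members took 0.889% and 1.18% in the controls, against 0.966% and 1.03% with MK-8931, and mt-Co1 alone took 54.3% to 55.6% of that. The nuclear members took 0.596% and 0.778% in the controls, against 0.599% and 0.709% with MK-8931. Both shares were highest in control 2, and the MK-8931 values lay inside the control range. The ratio of nuclear to mitochondrial counts was 0.67 and 0.657 in the controls, against 0.62 and 0.686 with MK-8931, so the 2 genomes kept a similar balance in the 4 libraries.

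Genes that assemble, regulate or feed the respiratory chain were read from 8 further lists of 169 genes, of which 153 were tested. None was called in either direction by edgeR (0.998% of all genes were), and the median difference was -0.01. An unadjusted p under 0.05 was found for 8 of the 153, against 10.8% of all genes. Medians by list lay between -0.08 and 0.09. For complex I assembly (18 tested) the median was -0.02, and the factor Ndufaf5 measured 6.45 and 8.68 against 4.46 and 5.27 CPM (-0.64 ± 0.30 SE, edgeR adjusted p = 0.501). In the other direction Dmac2, also a complex I factor, measured 14.5 and 12.96 against 19.6 and 16.3 CPM (0.39 ± 0.20 SE, edgeR adjusted p = 0.567). For complex IV assembly (22 tested) it was 0.04, and Higd1a, a hypoxia-induced partner of complex IV, measured 39.4 and 53.7 against 30.1 and 33.1 CPM (-0.56 ± 0.18 SE, edgeR adjusted p = 0.276). Cmc1, a complex IV factor, measured 14.2 and 14.4 against 18.1 and 16.0 CPM (0.25 ± 0.19 SE). For the assembly of complexes II, III and V (12 tested) it was -0.08, and Ttc19, a complex III factor, measured 18.9 and 15.2 against 12.4 and 11.2 CPM (-0.53 ± 0.21 SE, edgeR adjusted p = 0.404). Bcs1l, which inserts the Rieske protein into complex III, measured 4.84 and 7.50 against 9.48 and 8.25 CPM (0.52 ± 0.29 SE).

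Mitochondrial DNA expression (29 tested) had a median of 0.08, with Polg2, the accessory subunit of the DNA polymerase, at 7.85 and 5.92 against 10.1 and 8.47 CPM (0.44 ± 0.27 SE) and Twnk, the helicase, at 10.5 and 9.85 against 8.81 and 6.68 CPM (-0.39 ± 0.25 SE). Nuclear regulators of respiration (16 tested) had a median of 0.09. Esrra, a nuclear receptor that drives respiratory genes, measured 40.7 and 41.2 against 50.8 and 55.7 CPM (0.38 ± 0.14 SE, edgeR adjusted p = 0.371), and Epas1, the hypoxia factor HIF-2 alpha, measured 117 and 121 against 97.0 and 65.8 CPM (-0.54 ± 0.18 SE, edgeR adjusted p = 0.293). The groups did not overlap for these genes, nor for any other gene of the 8 lists given here with CPM. All were chosen by smallest p. Over all genes, both MK-8931 libraries lay above both controls for 21.2% and below both for 20.0%. The tricarboxylic acid cycle (27 tested) had a median of -0.05, with Pdp2, a pyruvate dehydrogenase phosphatase, at 6.35 and 6.07 against 9.43 and 13.4 CPM (0.87 ± 0.27 SE, edgeR adjusted p = 0.232). Sucla2, a subunit of succinyl-CoA synthetase, was 55.1 and 64.5 against 40.6 and 48.9 CPM (-0.42 ± 0.16 SE, edgeR adjusted p = 0.379). Other electron entry and coupling genes (26 tested) had a median of -0.07, with Hccs, which attaches haem to cytochrome c, at 37.1 and 42.4 against 29.8 and 30.7 CPM (-0.39 ± 0.16 SE). Coq4, needed for coenzyme Q synthesis, was 5.16 and 4.59 against 6.87 and 7.28 CPM (0.54 ± 0.28 SE). Subunits and paralogs outside the name rule (3 tested) had a median of 0.06, with AA467197 at 0.47 ± 0.42 SE and Usmg5, a small subunit of complex V, at -0.19 ± 0.33 SE. The median difference between the controls was 0.41 for complex I assembly but -0.09 for mitochondrial DNA expression and -0.12 for the nuclear regulators, so the higher level in control 2 was not shared by these 2 lists.

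The promoters of nuclear members were read for short motifs, and whether a motif goes with the differences between libraries was not tested. RefSeq promoter windows of 300 bases (GRCm38.p6) were found for 68 of the 87 nuclear entries, giving 72 windows, and all 32851 windows of the table served as reference. The letters GCGCATGCG, a form of the site of NRF-1, which is a known activator of respiratory genes, were in 12.5% of member windows (9 of 72) and 1.75% of all. AAGATGGCG, a form of the YY1 site, was in 9.72% against 1.40%, and CCGGAAGT, an ETS-type site, in 6.94% against 3.89%. CCAAT was in 43.1% against 37.4%, and TATAAA in 11.1% against 13.6%. Both strands were searched. The NRF-1 letters were in windows of Atp5g2, Atp5k, Atp5l, Cox6a1, Cycs, Ndufa8, Ndufa11, Uqcr11 and Uqcrc1. The distal 150 bases of the Cox6a1 window (chr5:115349059-115349208, minus strand) are shown because Cox6a1 was the most abundant of these 9 genes. The capitals mark matches on the 2 strands, which overlap.
Cox6a1: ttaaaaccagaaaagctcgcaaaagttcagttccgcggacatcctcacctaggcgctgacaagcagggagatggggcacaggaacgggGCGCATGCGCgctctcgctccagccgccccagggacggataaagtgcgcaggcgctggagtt
A match of letters is a description of the sequence and not a measured binding site.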

How the data were processed

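RNA of sorted macrophages was measured in 4 libraries of 2 groups, taken from the labels' titles. Whole-number counts per gene and FPKM values (per length and library) were deposited by the authors in 1 table, per the file headers, and gene lengths stood beside them. FPKM was checked to equal count over length times a constant per library. Another 4 columns of values per sample were not used. The submitters' processing notes name CASAVA and mm9, but 94 of 100 members, and 98.3% of 54409 shared identifiers, have the positions of GENCODE M21 on GRCm38, so GRCm38 is given. The sources used here name no aligner, counting tool or strand setting.

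Genes were kept by filterByExpr (minimum count 10), which left 13932 genes and 94 members. The 6 members left out were Cox7b2, Cox8b, Cox8c, mt-Atp8, mt-Nd3 and the Atp5o entry without counts. Libraries were TMM-scaled (0.971 to 1.01) and compared with edgeR 4.0.16 in R 4.3.3 (glmQLFit, glmQLFTest, two-sided, Benjamini-Hochberg over all genes, threshold 0.05). SE is the absolute log2 difference over the square root of F. The test was tested on simulated data. CPM are TMM-scaled, and differences between replicates are log2 ratios of CPM. The counts of the controls (chi-square per degree of freedom 29.0) and of the MK-8931 libraries (17.0) differed beyond sampling noise.

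Members and lists were chosen with earlier results of these data known. Named genes were, by rule, the tested mitochondrial members, and for each complex the highest 2 by FPKM, the smallest p in each direction and the member nearest the filter, with the complex IV isoform pairs and, for each further list without a call, the smallest p in each direction. Alternatives were other scalings, no filter, DESeq2 1.42.0, limma-voom 3.58.1, a replicate block and leaving out each library.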

Additional observations from a re-analysis of the deposited data

How the results depend on the processing

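Members called stayed at 0 of 94 under RLE size factors, library size alone, scaling without mitochondrial genes, DESeq2, limma-voom and the replicate block. With no filter on low counts they stayed at 0 of 97. Leaving out each library in turn gave 0 to 9 called members, with 9 only without control 1. All genes called numbered 139, but 542 with no filter, 357 with DESeq2, 743 with the replicate block and 95 to 763 when leaving out 1 library. Genes called in the 8 further lists were 1 with no filter (Epas1), 4 with the replicate block and 0 to 1 when leaving out 1 library. With each library left out in turn, the median log2 difference ran from -0.34 to 0.18 for nuclear members and from -0.33 to 0.15 for mitochondrial members. By complex it ran from -0.35 to 0.18 (I), -0.28 to 0.17 (II), -0.37 to 0.10 (III), -0.31 to 0.18 (IV) and -0.32 to 0.22 (V). Differences were below 0 for 67 members, for 87 without control 1, 12 without control 2, 43 without MK-8931 1 and 81 without MK-8931 2. The other scalings left 63 to 67 below 0, and library size alone moved the median of all genes to 0.02. Where a group kept 1 library, it was assumed to vary like the other group.

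Same-numbered libraries deviated together with a correlation of 0.243 over 13932 genes, but with 2 pairs the samples share only a number. With the replicate block the medians were -0.10 (nuclear) and -0.09 (mitochondrial). Of 462 alternatives for 42 named members, 402 stayed within 1 SE and on the same side of the threshold and 55 moved further. The rest were fits without control 1. No member was called in the main fit, so a reversed call could not occur. The sign of the differences did change with the library left out, as given above. Low counts limit what can be read from the 6 mitochondrial members at or under 224 counts and from the minor isoforms.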

Other observations

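The mitochondrial ribosomal RNAs, which the name rule leaves out, were read after the members and are given as values. mt-Rnr2, the large ribosomal RNA, measured 1461 and 1253 CPM in the controls, against 1964 and 2250 CPM with MK-8931 (log2 difference 0.64 ± 0.14 SE, edgeR adjusted p = 0.0835). mt-Rnr1, the small one, measured 577 and 724 against 730 and 997 CPM (0.41 ± 0.18 SE, edgeR adjusted p = 0.459). Both genes had MK-8931 libraries above both controls, as did 21.2% of all genes tested. Counts of these 2 RNAs over counts of the mitochondrial members were 0.232 and 0.162 in the controls, against 0.282 and 0.317 with MK-8931. Whether the libraries were made by poly(A) selection or by removal of ribosomal RNA is not given in the sources used here.

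The copy Gm29216, which matches the end of mt-Co1, had 79 and 546 counts in the controls, against 72 and 95 with MK-8931, so control 2 stood apart. mt-Co1 itself had 90582 and 132948 counts in the controls, against 101326 and 103897 with MK-8931.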
